A study of Mus musculus with 20 samples.

Results

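The 37 genes described here are the cell cycle and proliferation genes of the mouse liver, taken by symbol from a table of read counts with 55421 genes: the G1/S cyclins and E2F factors, the origin licensing factors, the suppliers of nucleotides, the kinase engine of mitosis, the spindle and checkpoint proteins, the partners of the anaphase-promoting complex and the markers Mki67 and Top2a. The cyclins and E2F factors, the licensing factors and the suppliers of nucleotides are called G1 and S-phase genes below (18 genes). The other roles, Mki67 and Top2a included, are called mitosis-phase genes (19 genes), a name for the set and not a measured phase. All 37 were found once, and all 37 passed the filter of at least 10 counts in total that left 22867 genes to test. The livers came from wildtype mice labelled female, injected into the retro-orbital sinus at 6 months of age with AAV8-Tbg-saCAS9/U6-sgRNA, a viral vector in which the hepatocyte-specific Tbg promoter drives Staphylococcus aureus Cas9. The guide was directed against HIRA, a histone chaperone that places histone H3.3 outside of DNA replication, or against Rosa26, a locus used as a neutral target, so that both arms carried the vector and the nuclease. Livers were collected 3 weeks or 6 months after the injection, with 5 libraries in each of the 4 groups (Rosa26 and HIRA at either time) and with 19916430 to 24079736 counts per library. Whole liver was sequenced after poly(A) selection, so that cells other than hepatocytes, which the promoter does not address, contributed RNA as well.

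Hepatocytes of an adult liver rest outside the cell cycle and divide rarely, although they can return to it after injury or loss of tissue. Entry runs from cyclin D, which with its kinases releases E2F from the retinoblastoma proteins, through E2F targets that license origins and supply nucleotides for S phase, to cyclin A, cyclin B and Cdk1, which drive mitosis, and to Cdc20 and Ube2c, which end it by directing the destruction of cyclins. Genes of the late phases are held down in resting cells by the DREAM complex, which binds the cell cycle homology region close to the start of transcription, and are switched on by B-Myb and Foxm1. A few dividing cells of any type are enough to bring their transcripts into a bulk library, and in bulk tissue more dividing cells and more RNA per dividing cell cannot be told apart.

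The labels were checked first. Hira had 4.15 to 5.95 CPM (counts scaled to a common library size by the TMM method) in the HIRA libraries at 3 weeks and 6.04 to 8.54 CPM in the Rosa26 libraries, with no overlap. The log2 difference was -0.48 ± 0.14 (SE, n = 5 against 5), and its adjusted p of 0.197 in edgeR's quasi-likelihood test missed the threshold of 0.05. At 6 months Hira had 4.96 to 6.51 CPM in the HIRA libraries and 4.82 to 7.32 CPM in the Rosa26 libraries, so that transcript levels in whole liver do not separate these groups (log2 difference -0.10 ± 0.14, adjusted p = 0.794 in edgeR, and -0.16 ± 0.14 without HIRA replicate 5). The paper reports loss of HIRA protein by western blot in its CRISPR livers against Rosa26 controls, and protein was not measured here. Hepatocyte markers (7 genes with Alb and Ttr among them) summed to 80670 to 159356 CPM in all libraries. The HIRA library of replicate 5 at 6 months departed from its label: it held 9 Xist counts and 2041 counts over 4 genes of the Y chromosome, where the other 19 libraries held 6286 to 8436 and 0 to 13. The medians over the 37 genes and the differences of those of the 37 that are named at 6 months are also given without it. Of the genes beside the 37, only the guide differences of Hira and Cdkn1a are, and interactions of single genes are not.

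The promoters of late cell cycle genes are known for the element through which DREAM acts, and those of the mitosis-phase genes are shown because these genes were high and low together in the libraries described further on. RefSeq promoters of GRCm38.p6, which run from 250 bases before to 50 bases after the annotated start, were found for 28 of the 37 genes (30 promoters). TTTGAA, the core of the cell cycle homology region, was searched on both strands. It lay within 50 bases of the start in 9 of the 14 promoters of mitosis-phase genes (64.3%), in 1 of the 16 promoters of G1 and S-phase genes (6.25%, the downstream of the 2 listed promoters of E2f2) and in 4.94% of all 32851 promoters. The next lines give the 9 promoters from 100 bases before to 50 bases after the start, 5′ to 3′ on the strand of the gene, with every TTTGAA and every CCAAT (the core of the site of the activator NF-Y) in capitals, or TTCAAA and ATTGG where these lie on the other strand.
Bub1b, chr2:118598111-118598260, plus strand: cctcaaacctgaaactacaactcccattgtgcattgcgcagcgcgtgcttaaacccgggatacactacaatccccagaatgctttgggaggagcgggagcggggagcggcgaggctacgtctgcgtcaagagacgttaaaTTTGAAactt
Ube2c, chr2:164769829-164769978, plus strand: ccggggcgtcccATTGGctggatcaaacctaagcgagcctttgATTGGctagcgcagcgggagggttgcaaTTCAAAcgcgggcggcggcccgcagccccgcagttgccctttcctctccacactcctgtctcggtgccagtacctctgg
Aurka, chr2:172370521-172370670, minus strand: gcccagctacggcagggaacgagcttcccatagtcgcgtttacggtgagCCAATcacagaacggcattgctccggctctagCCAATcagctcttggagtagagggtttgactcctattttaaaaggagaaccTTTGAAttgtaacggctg
Cdc20, chr4:118437294-118437443, minus strand: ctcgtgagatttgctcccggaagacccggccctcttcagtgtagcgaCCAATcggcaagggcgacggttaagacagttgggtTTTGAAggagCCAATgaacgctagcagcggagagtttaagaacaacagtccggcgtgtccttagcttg
Plk1, chr7:122159335-122159484, plus strand: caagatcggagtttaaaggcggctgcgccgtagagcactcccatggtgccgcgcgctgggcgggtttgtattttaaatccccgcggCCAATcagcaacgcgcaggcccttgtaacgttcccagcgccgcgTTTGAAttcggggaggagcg
Ccnb2, chr9:70421505-70421654, minus strand: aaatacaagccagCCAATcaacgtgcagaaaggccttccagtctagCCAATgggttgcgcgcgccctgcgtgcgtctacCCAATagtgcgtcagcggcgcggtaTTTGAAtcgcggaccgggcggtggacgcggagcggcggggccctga
Cdk1, chr10:69352863-69353012, minus strand: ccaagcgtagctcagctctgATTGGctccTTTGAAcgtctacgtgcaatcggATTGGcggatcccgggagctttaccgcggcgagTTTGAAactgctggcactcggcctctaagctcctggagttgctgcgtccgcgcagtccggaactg
Top2a, chr11:99024140-99024289, minus strand: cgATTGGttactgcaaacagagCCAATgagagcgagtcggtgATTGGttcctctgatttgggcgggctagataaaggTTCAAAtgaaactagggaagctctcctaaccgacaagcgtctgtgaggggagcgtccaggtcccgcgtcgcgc
Kif11, chr19:37376282-37376431, plus strand: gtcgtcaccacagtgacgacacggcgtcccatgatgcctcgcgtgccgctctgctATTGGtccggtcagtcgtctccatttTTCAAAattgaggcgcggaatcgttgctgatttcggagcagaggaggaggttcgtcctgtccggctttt

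CCAAT, searched on both strands over the whole 300 bases, was in 13 of the 14 mitosis-phase promoters (92.9%), in 11 of the 16 G1 and S-phase promoters (68.8%) and in 37.4% of all promoters. The E2F site, searched on both strands as TTTGGCGC or TTTCCCGC, was in 7 of the 16 G1 and S-phase promoters (43.8%), in 0 of the 14 mitosis-phase promoters and in 1.56% of all promoters. The 7 were the upstream promoter of E2f2 itself, 1 of the 2 promoters of the helicase subunit Mcm7 and those of its fellow subunits Mcm3, Mcm5 and Mcm6 and of the licensing factors Cdc6 and Cdt1. Of these, 4 held it within the stretch from 100 bases before to 50 bases after the start, shown here with the E2F letters in capitals (GCGGGAAA is TTTCCCGC on the other strand).
Mcm3, chr1:20820263-20820412, minus strand: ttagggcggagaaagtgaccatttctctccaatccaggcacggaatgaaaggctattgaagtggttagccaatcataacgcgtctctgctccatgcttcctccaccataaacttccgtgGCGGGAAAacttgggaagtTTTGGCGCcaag
Mcm6, chr1:128359656-128359805, minus strand: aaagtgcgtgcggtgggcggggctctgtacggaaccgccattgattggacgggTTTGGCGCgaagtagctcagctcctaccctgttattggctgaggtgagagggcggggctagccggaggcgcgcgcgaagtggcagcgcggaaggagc
E2f2, chr4:136172174-136172323, plus strand: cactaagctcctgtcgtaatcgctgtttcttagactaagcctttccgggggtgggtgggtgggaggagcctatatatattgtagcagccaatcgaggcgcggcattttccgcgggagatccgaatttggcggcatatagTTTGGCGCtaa
Cdt1, chr8:122567915-122568064, plus strand: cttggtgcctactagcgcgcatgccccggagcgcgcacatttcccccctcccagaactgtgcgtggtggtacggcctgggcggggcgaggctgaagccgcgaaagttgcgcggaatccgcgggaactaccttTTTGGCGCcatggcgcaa

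These matches describe letters in the promoters and show no binding.

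Between the genes, levels were compared as CPM per kilobase of merged exons. In the Rosa26 livers at 3 weeks Ccnd1, the cyclin that couples growth signals to the cycle, led with a median of 13.9 CPM per kilobase, ahead of Pcna, the sliding clamp of DNA polymerase, with 9.71 and Mcm7, a subunit of the replicative helicase, with 3.99. The lowest were Cdc6, which loads the helicase, with 0.0485, the checkpoint kinase Bub1 with 0.0428 and the kinetochore motor Cenpe with 0.0314. Mki67, the antigen used to count cycling cells, stood at 0.302 and Top2a, which untangles sister chromatids, at 0.299. The 18 genes of G1 and S phase together gave 104 to 257 CPM in the 20 libraries, and the 19 mitosis-phase genes gave 14.8 to 63.4 CPM.

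**Figure D1:**
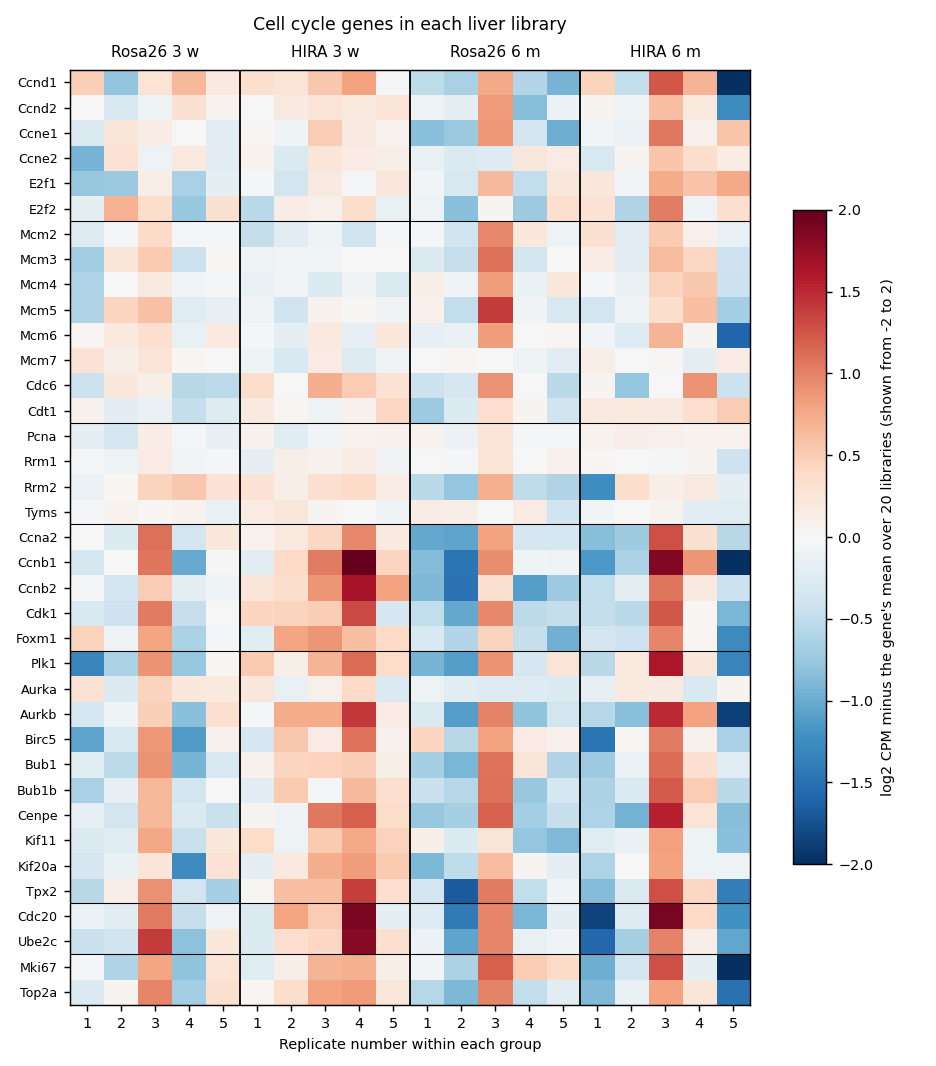
Log2 CPM of the 37 genes (rows, ordered by role, with lines between roles) in the 20 libraries (columns, replicates 1 to 5 of each group), each minus the gene's mean over the 20 libraries and shown from -2 to 2. Single columns are red for most genes from Ccna2 down to Top2a in every group, replicate 3 of Rosa26 at 3 weeks, replicate 4 of HIRA at 3 weeks and replicate 3 of both arms at 6 months, while HIRA replicate 5 at 6 months is blue for most of these genes.

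The mitosis-phase genes varied between livers of the same group. The within-group SD of log2 CPM had a median of 0.65 over these 19 genes and 4 groups, against 0.29 for the 18 genes of G1 and S phase. These SDs include counting error, which is larger for genes with few counts. In Rosa26 at 6 months Ccne1, a G1 cyclin, had an SD of 0.75 on 4 to 21 counts. Of the mitosis-phase genes, Aurka had 0.07 on 61 to 74 counts and Mki67 had 0.68 on 42 to 167 counts. The part of counting error in the SDs was not tested. In each group a single library held the highest value for 18 of the 19 genes: Rosa26 replicate 3 and HIRA replicate 4 at 3 weeks, and replicate 3 of both arms at 6 months. The exceptions were Kif20a, Foxm1 and, in both arms at 6 months, Aurka. Against the median of its own group, the library's level had a median ratio over the 19 genes of 2.22 in Rosa26 replicate 3 and 1.62 in HIRA replicate 4 at 3 weeks, and of 2.43 in Rosa26 replicate 3 and 3.07 in HIRA replicate 3 at 6 months. Both arms and both times thus had such a liver.

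The 19 mitosis-phase genes summed to 19.1 to 51.0 CPM in Rosa26 and to 28.3 to 61.8 CPM in HIRA at 3 weeks. At 6 months they summed to 15.7 to 49.6 CPM in Rosa26 and to 14.8 to 63.4 CPM in HIRA. The group medians were 24.2, 35.5, 23.0 and 23.5 CPM in the same order. The ranges overlap in every pair of groups, and the lowest value of all was that of the HIRA library whose Y genes depart from its label.

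The 48 other genes of mitosis listed beside the 37, such as Nusap1 and Prc1, were mostly highest in the same libraries when counted gene by gene. Rosa26 replicate 3 was the highest of its group for 35 of 48 of them at 3 weeks and for 41 of 48 at 6 months. HIRA replicate 4 was the highest of its group for 35 of 48 at 3 weeks, and HIRA replicate 3 for 43 of 48 at 6 months. Their summed level was also highest in the first 3 of these libraries. In the HIRA livers at 6 months it was 275 CPM in replicate 3, below the 285 CPM of replicate 4 and the 336 CPM of replicate 5, the library that departs from its label. The G1 and S-phase members followed in part: the same libraries were highest of their group for 8, 5, 14 and 9 of 18 genes, in the order Rosa26 and HIRA at 3 weeks, Rosa26 and HIRA at 6 months.

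**Figure D2:**
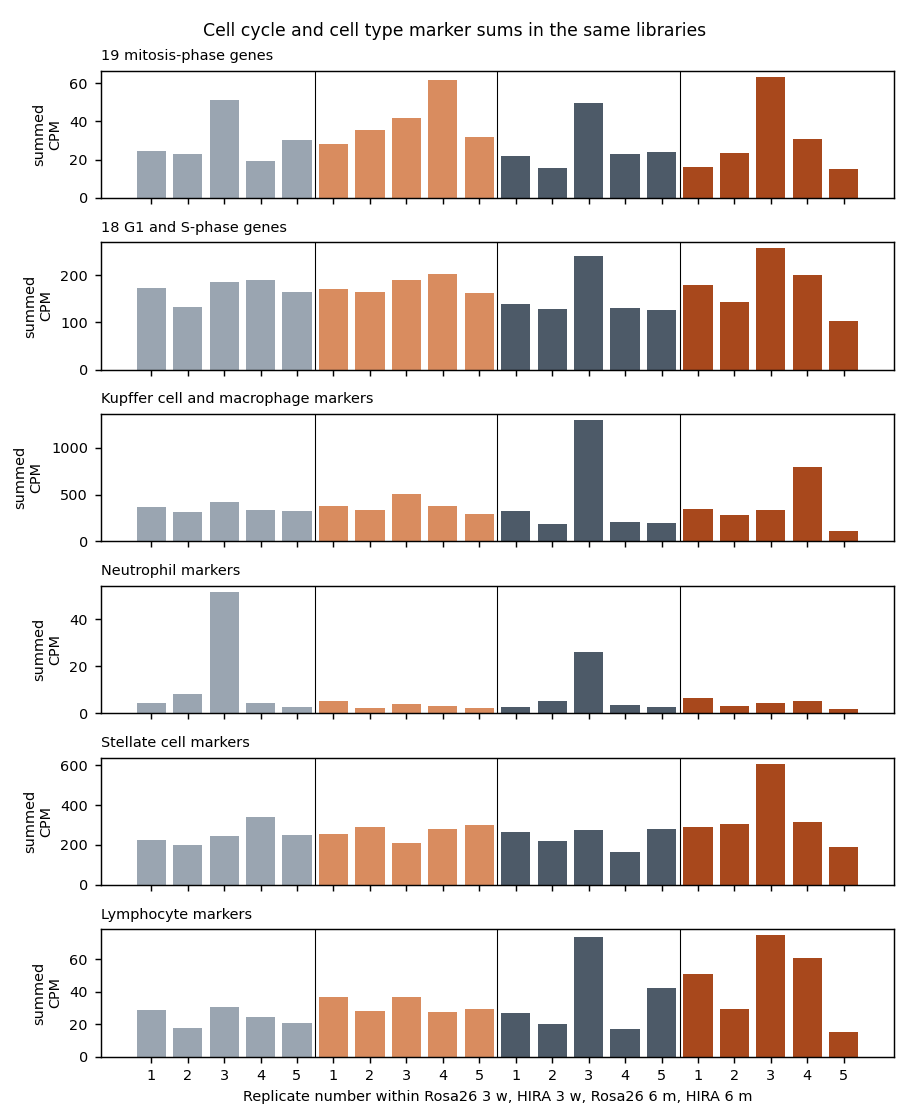
Summed TMM-scaled CPM (bars, linear axes from 0) of the 19 mitosis-phase genes, the 18 G1 and S-phase genes and 4 lists of cell type markers in each of the 20 libraries. Kupffer cell markers reach 1296 CPM in the Rosa26 library of replicate 3 at 6 months and neutrophil markers 51.5 CPM in that of replicate 3 at 3 weeks, whereas HIRA replicate 4 at 3 weeks is high in the top panel and within the range of its time in the 4 marker panels.

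Markers of other cell types were high in 3 of these 4 libraries. In Rosa26 replicate 3 at 3 weeks the 6 neutrophil markers summed to 51.5 CPM, while the other libraries of the groups at 3 weeks had 2.05 to 8.14 CPM. In Rosa26 replicate 3 at 6 months the 7 Kupffer cell and macrophage markers summed to 1296 CPM, the highest of the 20 libraries, and the neutrophil markers to 26.1 CPM. In HIRA replicate 3 at 6 months the 6 stellate cell markers summed to 609 CPM, against 163 to 342 CPM in the other 19 libraries, and the 10 lymphocyte markers to 74.7 CPM, against 73.6 CPM in Rosa26 replicate 3. In the same HIRA library the 5 biliary markers summed to 153 CPM, also the highest of the 20 libraries. HIRA replicate 4 at 3 weeks had 379 CPM of Kupffer cell markers, 3.11 CPM of neutrophil markers and 27.4 CPM of lymphocyte markers, values within the range of the other libraries of its time. The hepatocyte markers had their lowest sum of the group in 3 of the 4 libraries, with 121521 CPM in HIRA replicate 4 at 3 weeks, 80670 CPM in Rosa26 replicate 3 and 99580 CPM in HIRA replicate 3 at 6 months, while Rosa26 replicate 3 at 3 weeks had 133383 CPM in a range of 92717 to 141301 CPM. Of the neutrophil markers, Ly6g was at 0 in all 5 HIRA libraries at 3 weeks. The part of the cell makeup in the high values was not tested.

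The first comparison asked whether the HIRA guide changed proliferation genes 3 weeks after injection. Of the 37 genes, 0 had an adjusted p under 0.05 in edgeR's quasi-likelihood test, where 0.197% of all genes tested had one, nor did DESeq2 or limma call any, and 2 had an unadjusted p under 0.05, where 8.87% of all genes did. That count was 7 of 37 (18.9%, against 8.21% of all genes) without Rosa26 replicate 3, and 7 (against 12.0%) when the 10 libraries at 3 weeks were fitted alone. The groups overlapped for all 37 genes, and 2.69% of all genes had groups that did not. Of the 37, 28 were higher on average in the HIRA livers, with a median log2 difference of 0.31, against -0.01 over all genes tested. The median was 0.52 over the mitosis-phase genes (18 of 19 higher) and 0.06 over those of G1 and S phase (10 of 18 higher), and none of these single differences passed the test. Without Rosa26 replicate 3 the median of the 37 was 0.56 with 31 higher, and without HIRA replicate 4 it was 0.18 with 26 higher. Markers of other cells differed as well. All 10 lymphocyte markers were higher on average in the HIRA livers (median log2 difference 0.62, 3 with an unadjusted p under 0.05), with sums of 17.8 to 30.7 CPM (median 24.1) in Rosa26 and of 27.4 CPM or more (median 29.3) in HIRA libraries. All 6 neutrophil markers were lower on average (median -3.33, all 6 with an unadjusted p under 0.05). Their sums were 2.61 to 51.5 CPM (median 4.37) in Rosa26 and 2.05 to 4.93 CPM (median 3.11) in HIRA libraries. The highest sum was that of Rosa26 replicate 3, and the group medians of the sums lay closer together than the average difference of the markers. The medians of the other 6 marker lists lay between -0.11 and 0.14. No marker had an adjusted p under 0.05, and the part of these cells in the differences of the 37 genes was not tested.

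The largest difference at 3 weeks was that of Ccnb2, a B-type cyclin that activates Cdk1 for entry into mitosis. It had 1.17, 0.899, 1.71, 1.04 and 1.12 CPM in the Rosa26 libraries and 1.43, 1.55, 2.27, 3.94 and 2.15 CPM in the HIRA libraries, of replicates 1 to 5. All HIRA values lay above those of Rosa26 but for replicate 3, the Rosa26 liver with high mitosis-phase genes. The log2 difference was 0.93 ± 0.37 (SE, 95% interval 0.17 to 1.70), with an unadjusted p of 0.019 and an adjusted p of 0.433 in edgeR's test. Ccnb1, its close relative, had 5 to 27 counts in the Rosa26 and 10 to 57 counts in the HIRA libraries, with a log2 difference of 0.92 ± 0.70, which was 0.41 without HIRA replicate 4 and 1.38 without Rosa26 replicate 3.

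Mcm7 was the other gene with an unadjusted p under 0.05. It had 19.9, 17.7, 19.6, 16.8 and 16.4 CPM in the Rosa26 and 15.2, 13.2, 18.3, 13.6 and 15.5 CPM in the HIRA libraries at 3 weeks. The groups overlapped through HIRA replicate 3. The log2 difference was -0.25 ± 0.10 (interval -0.45 to -0.05) and the adjusted p was 0.404. The interaction of guide and time for Mcm7 was 0.33 ± 0.14, with an adjusted p of 0.698.

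Among the other roles the largest differences at 3 weeks were those of Cdc6 (0.72 ± 0.39, adjusted p = 0.648), of E2f1, the activating transcription factor of S phase (0.41 ± 0.23, adjusted p = 0.669), and of Pcna (0.10 ± 0.09, adjusted p = 0.856). In the other mitosis-phase roles they were those of Cenpe (0.80 ± 0.58, adjusted p = 0.767), of Cdc20 (0.66 ± 0.60, adjusted p = 0.851) and of Top2a (0.31 ± 0.40, adjusted p = 0.912). With 1 library left out, Cdc20 ran from 0.14 (without HIRA replicate 4) to 1.03 and Top2a from 0.15 (without Rosa26 replicate 4) to 0.61, both highest without Rosa26 replicate 3. Pcna ran from 0.04 (without Rosa26 replicate 2) to 0.17 (without Rosa26 replicate 3). Cdc6 and Cenpe rest on 5 to 14 and 5 to 21 counts per library at 3 weeks. The widths of the intervals differ by role: the 95% interval lay within a 2-fold change in either direction for 16 of the 18 G1 and S-phase genes but for 1 of the 19 mitosis-phase genes. The upper bound lay below a 2-fold increase for 1 of the 19 mitosis-phase genes, whereas the lower bound lay above a 2-fold decrease for all 19, so that at 3 weeks it was increases of this size that most intervals held.

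**Figure D3:**
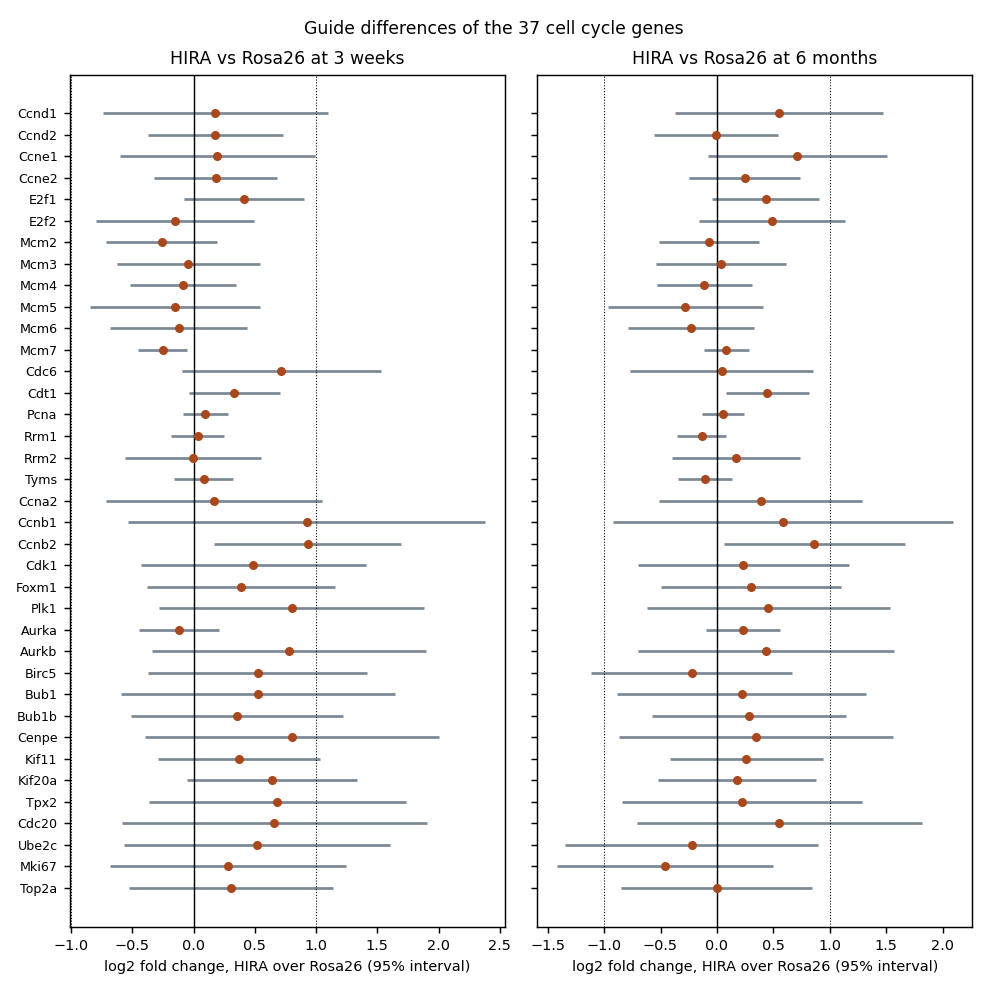
Log2 fold change of HIRA over Rosa26 (points) with its 95% interval (lines) for the 37 genes at 3 weeks and at 6 months from edgeR, with dotted lines at a 2-fold change. Points of the mitosis-phase genes lie mostly right of 0 at 3 weeks with wide intervals, and those of Mcm7, Pcna and Rrm1 have narrow ones.

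At 6 months after injection, again 0 of the 37 genes had an adjusted p under 0.05, where 1.31% of all genes did, and 2 had an unadjusted p under 0.05, where 15.5% of all genes did. Without Rosa26 replicate 3, 7 had one (18.9%, against 17.0% of all genes), and 0 had one when the 10 libraries at 6 months were fitted alone (against 12.6%). The groups overlapped for all 37 genes, against 3.15% of all genes that did not. The HIRA livers were higher for 26 of the 37 genes with a median log2 difference of 0.22, against 0.03 over all genes. This direction rests on single livers. Without HIRA replicate 3, 12 of 37 genes were higher and the median was -0.17, and without Rosa26 replicate 3, 33 of 37 were higher and the median was 0.47. Without HIRA replicate 5, the library that departs from its label, 28 of 37 were higher and the median was 0.25. The mitosis-phase genes were higher for 15 of 19 with all libraries (median 0.26) and for 16 of 19 without that library (median 0.43). Markers of other cells differed in both directions. They were higher on average in the HIRA livers for lymphocytes (10 of 10, median log2 difference 0.45), stellate cells (6 of 6, median 0.48) and the sinusoidal endothelium (6 of 6, median 0.30), and lower for Kupffer cells (1 of 7 higher, median -0.12) and neutrophils (1 of 6 higher, median -0.72). In both of the last lists the highest sum of the Rosa26 livers was that of replicate 3, and the group medians of the sums ran the other way. Kupffer cell markers summed to 182 to 1296 CPM (median 210) in Rosa26 and to 108 to 793 CPM (median 336) in HIRA libraries, and neutrophil markers to 2.56 to 26.1 CPM (median 3.24) and to 1.68 to 6.49 CPM (median 4.23). Sums of the first 3 lists were 16.7 to 73.6, 163 to 281 and 137 to 230 CPM in Rosa26 and 15.3 to 74.7, 191 to 609 and 163 to 256 CPM in HIRA libraries. Medians were 0.43 over erythroid, 0.22 over biliary and 0.17 over hepatocyte markers. No marker had an adjusted p under 0.05, and the part of these cells in the differences of the 37 genes was not tested.

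Ccnb2 again had the largest difference at 6 months. It had 0.598, 0.373, 1.51, 0.510 and 0.688 CPM in the Rosa26 libraries and 0.821, 1.05, 2.61, 1.37 and 0.864 CPM in the HIRA libraries. Apart from replicate 3 of Rosa26 all HIRA values were the higher ones, as at 3 weeks. The log2 difference was 0.86 ± 0.39 (interval 0.06 to 1.67), with an unadjusted p of 0.0362 and an adjusted p of 0.281. It was 0.46 without HIRA replicate 3 (adjusted p = 0.654), 1.30 without Rosa26 replicate 3 (adjusted p = 0.096) and 0.98 ± 0.40 without HIRA replicate 5. Cdt1, the loader of the helicase that geminin inhibits, had 1.92, 2.66, 4.13, 3.38 and 2.43 CPM in Rosa26 and 3.68, 3.73, 3.69, 4.06 and 4.63 CPM in HIRA libraries. Its HIRA values lay close together and above 4 of the 5 Rosa26 values (log2 difference 0.44 ± 0.18, unadjusted p = 0.0201, adjusted p = 0.222, and 0.38 ± 0.18 without replicate 5).

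Cdc20, the activator of the anaphase-promoting complex, shows how a single liver set the sign. It had 1.37, 0.559, 3.31, 0.834 and 1.42 CPM in the Rosa26 and 0.391, 1.37, 6.39, 2.20 and 0.661 CPM in the HIRA libraries. The log2 difference was 0.55 ± 0.61 with all libraries (adjusted p = 0.728), -0.40 without HIRA replicate 3 and 0.78 ± 0.61 without HIRA replicate 5. Plk1, the polo-like kinase of mitotic entry, turned likewise from 0.46 ± 0.52 (adjusted p = 0.742) to -0.22, and was 0.69 ± 0.50 without HIRA replicate 5. Mki67 had 2.95, 1.96, 7.19, 4.40 and 4.04 CPM in Rosa26 and 1.53, 2.37, 7.67, 2.69 and 0.610 CPM in HIRA libraries, with a log2 difference of -0.46 ± 0.46 (adjusted p = 0.698). It was -1.19 without HIRA replicate 3, -0.17 without Rosa26 replicate 3 and -0.20 ± 0.42 without HIRA replicate 5. Top2a, the other marker of cycling cells, had a difference of 0.00 ± 0.41, which was -0.37, 0.47 and 0.21 ± 0.39 in the same order.

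**Figure D4:**
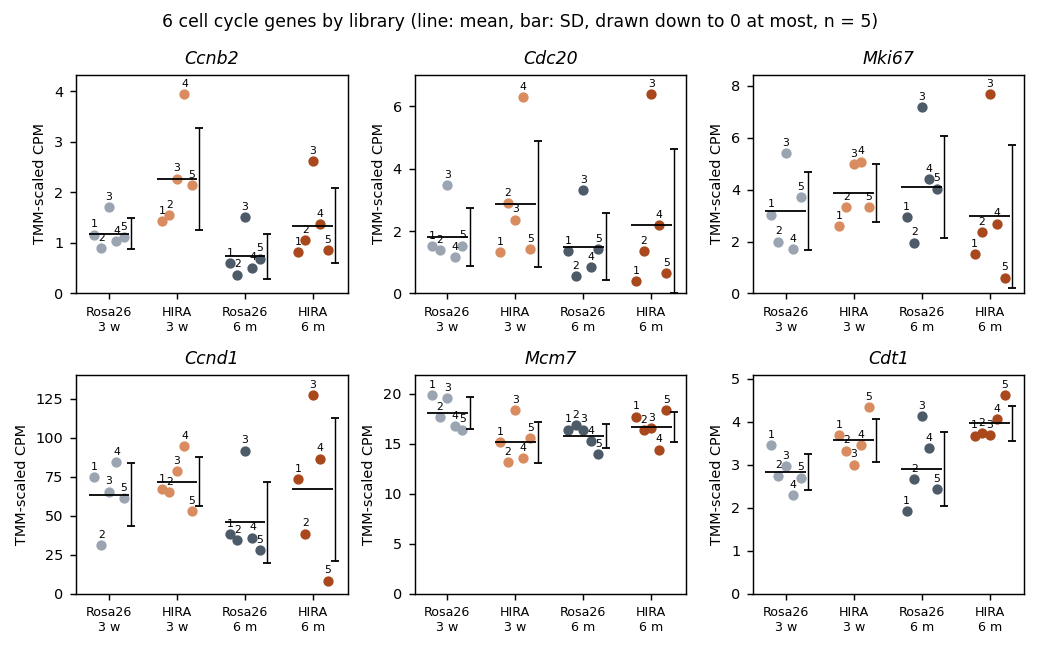
TMM-scaled CPM of 6 genes in each library (points, numbered by replicate), with the mean of the 5 libraries (line) and its SD (bar, drawn down to 0 at most). Replicate 3 is the highest point of both groups at 6 months for Ccnb2, Cdc20, Mki67 and Ccnd1, and the groups overlap in all 6 genes.

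Of the G1 cyclins at 6 months, Ccne1, which activates Cdk2 at the start of S phase, had the largest difference (0.71 ± 0.38, adjusted p = 0.382) on 4 to 21 counts in the Rosa26 and 9 to 25 counts in the HIRA libraries. It was 0.43 without HIRA replicate 3, 1.35 without Rosa26 replicate 3 and 0.66 ± 0.40 without HIRA replicate 5. Ccnd1 had 38.1, 34.3, 91.7, 36.0 and 28.2 CPM in Rosa26 and 73.6, 38.5, 128, 86.6 and 8.34 CPM in HIRA libraries. Its HIRA values thus ran from the lowest to the highest of the 20 libraries, and the lowest was that of replicate 5 (log2 difference 0.55 ± 0.44, adjusted p = 0.602). Without replicate 5 the difference was 0.84 ± 0.33 (adjusted p = 0.190), without HIRA replicate 3 it was 0.18 and without Rosa26 replicate 3 it was 0.96. Ccnb1 had 0 counts in that same library, which at its depth is under a floor of 3 counts, and 5 to 53 counts in the other 4 HIRA libraries at 6 months. Rrm2, the regulated subunit of ribonucleotide reductase, had the largest difference among the suppliers of nucleotides (0.17 ± 0.27, adjusted p = 0.832), which was 0.04 without HIRA replicate 2, 0.55 without Rosa26 replicate 3 and 0.20 ± 0.29 without HIRA replicate 5. The interval lay within a 2-fold change for 15 of 18 genes of G1 and S phase and for 4 of 19 mitosis-phase genes. For the latter, the upper bound lay below a 2-fold increase for 7 and the lower bound above a 2-fold decrease for 16.

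Between 3 weeks and 6 months after injection each arm was compared with itself, in separate groups of mice. In the Rosa26 livers 0 of the 37 genes had an adjusted p under 0.05 (0.324% of all genes did), and 1 had an unadjusted p under 0.05 (12.8% of all genes did), or 5 (13.5%, against 11.4%) without Rosa26 replicate 3 at 6 months. The 1 with all libraries was Aurka, the kinase of spindle poles, with 2.80 to 4.67 CPM at 3 weeks and 2.80 to 3.16 CPM at 6 months (log2 difference -0.42 ± 0.16, adjusted p = 0.250). The groups overlapped for all 37 genes, against 3.50% of all genes that did not. The median of the 37 was 0.02 with 20 of 37 higher at 6 months, and without Rosa26 replicate 3 at 6 months it was -0.41 with 8 of 37 higher. Over the same time 10 of 10 lymphocyte markers were higher (median log2 difference 0.77), as were 6 of 7 Kupffer cell markers (median 0.31), whose sums had a median of 337 CPM (313 to 425) at 3 weeks and of 210 CPM at 6 months, where replicate 3 reached 1296 CPM. Of the others, 0 of 6 neutrophil markers (median -0.75) and 0 of 6 of the sinusoidal endothelium (median -0.32) were higher. Medians over the other 4 lists lay between -0.21 and 0.46. No marker passed the test, and the part of these cells was not tested.

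In the HIRA livers all 19 mitosis-phase genes were lower on average at 6 months than at 3 weeks, with a median log2 difference of -0.43, while 11 of the 18 genes of G1 and S phase were higher. The median of the 37 was -0.17 with 11 of 37 higher, and without HIRA replicate 5 at 6 months it was -0.09 with 15 of 37 higher. Of the 37 genes, 0 had an adjusted p under 0.05 (0.0656% of all genes did) and 1 had an unadjusted p under 0.05 (8.95% of all genes did). Without HIRA replicate 3 at 6 months 12 of the 37 had one (32.4%, against 9.94% of all genes), and without HIRA replicate 5 at 6 months 0 had one (against 10.1%). The groups overlapped for all 37 genes, against 1.47% of all genes that did not. The gene with the unadjusted p in all libraries was E2f1, with 2.44 to 3.72 CPM at 3 weeks and 3.05 to 5.44 CPM at 6 months (0.49 ± 0.23, adjusted p = 0.548, and 0.41 ± 0.24 without replicate 5). Ube2c, the ubiquitin conjugating enzyme of the anaphase-promoting complex, had the largest difference (-0.90 ± 0.53, adjusted p = 0.658), which was -1.47 without HIRA replicate 3 at 6 months, -0.39 without HIRA replicate 4 at 3 weeks and -0.74 ± 0.55 without replicate 5 at 6 months. The median over the mitosis-phase genes was -1.03 without HIRA replicate 3 at 6 months, -0.23 without HIRA replicate 5 at 6 months (18 of 19 lower) and -0.21 without HIRA replicate 4 at 3 weeks (16 of 19 lower). Markers of lymphocytes (10 of 10, median 0.58), neutrophils (6 of 6, median 0.98) and stellate cells (6 of 6, median 0.34) were higher at 6 months on average, 1 of 6 of the sinusoidal endothelium was (median -0.20), and medians over the other 4 lists lay between -0.03 and 0.53. No marker passed the test, and the part of these cells was not tested. The guide comparisons and the time comparisons share libraries and do not stand as separate evidence.

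**Figure D5:**
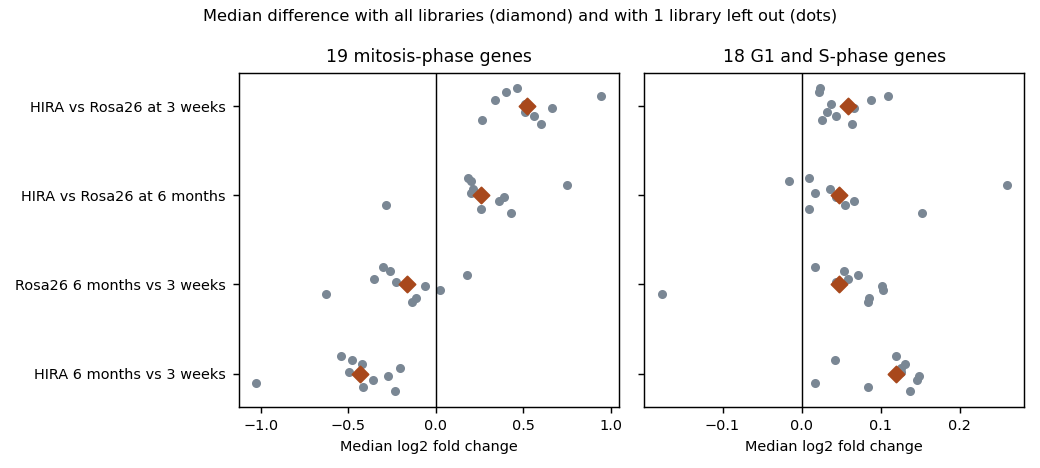
Median log2 fold change of the 19 mitosis-phase genes (left) and of the 18 G1 and S-phase genes (right, another scale) in 4 comparisons, with all libraries (diamonds) and with each of the 10 libraries of the comparison left out in turn (dots). At 6 months the median of the mitosis-phase genes lies at 0.26 and moves to -0.28 without HIRA replicate 3 and to 0.75 without Rosa26 replicate 3.

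The change of the guide difference with time was tested as an interaction. Of the 37 genes, 0 had an adjusted p under 0.05, as had 0.00% of all genes, and 1 had an unadjusted p under 0.05 (Mcm7, where 6.62% of all genes did). The 18 of 19 and 15 of 19 mitosis-phase genes that were higher in HIRA livers at 3 weeks and at 6 months are thus not shown to differ between the times. The median interaction over the 37 genes was -0.11 with all libraries, 0.21 without Rosa26 replicate 3 at 6 months and 0.01 without HIRA replicate 5 at 6 months.

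The genes around the 37 gave 2 adjusted p-values under 0.05. At 6 months Tk1, the thymidine kinase that salvages thymidine for DNA synthesis, was the single gene of 27 other replication genes that passed. It had 43.9 to 57.5 CPM in the Rosa26 and 24.6 to 41.8 CPM in the HIRA libraries, with no overlap and a log2 difference of -0.63 ± 0.15 (adjusted p = 0.0384). At 3 weeks it had 21.9 to 40.6 CPM in Rosa26 and 28.3 to 38.7 CPM in HIRA libraries, so that Rosa26 at 6 months was the group that stood apart. The log2 difference over time was 0.61 ± 0.15 in Rosa26 (adjusted p = 0.0743) and -0.10 ± 0.15 in HIRA livers (adjusted p = 0.903). Leaving out any of 7 of the 10 libraries of that comparison in turn, or fitting these 10 alone, took its adjusted p above 0.05 (highest 0.123), and without HIRA replicate 5 it was 0.0543. In the same comparison 0 of 48 other mitosis genes passed (38 higher, median 0.16), and neither did any of 22 other G1 regulators (18 higher, median 0.11) or of 7 CDK inhibitors. At 3 weeks 0 genes of these 4 lists passed, with 41 of 48 other mitosis genes higher and a median of 0.25.

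The CDK inhibitors block the cyclin-dependent kinases that the 37 genes serve. Cdkn1a, which encodes p21, a target of p53, had 52.2, 41.4, 72.6, 121 and 45.5 CPM in the Rosa26 livers at 3 weeks and 4.91, 3.50, 9.34, 4.12 and 5.23 CPM at 6 months. It fell by 3.61 ± 0.45 on the log2 scale (adjusted p = 0.00196), the other gene that passed, and the call held with each library left out (highest adjusted p = 0.0185). In the HIRA livers Cdkn1a had 14.8, 17.3, 64.3, 23.7 and 19.7 CPM at 3 weeks and 13.1, 12.8, 12.8, 3.67 and 5.29 CPM at 6 months. This difference of -1.54 ± 0.42 had an adjusted p of 0.200. Against Rosa26 it was -1.25 ± 0.40 at 3 weeks (adjusted p = 0.266) and 0.82 ± 0.44 at 6 months (adjusted p = 0.383, and 0.97 ± 0.45 without HIRA replicate 5), and the interaction of 2.07 ± 0.59 had an adjusted p of 0.614.

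Cdkn2a, which encodes p16 and p19Arf and is known to rise with age, had 3 to 4 counts in the Rosa26 libraries and 0 to 6 counts in the HIRA libraries at 3 weeks. At 6 months it had 9 to 61 counts in Rosa26 and 6 to 39 counts in HIRA libraries. The log2 difference over time was 2.59 ± 0.60 in Rosa26 (adjusted p = 0.0591) and lay between 1.22 and 3.77 (95% interval) in HIRA livers (adjusted p = 0.135). The adjusted p in Rosa26 ran from 0.0361 to 0.172 with 1 library left out of the joint fit, under 0.05 without HIRA replicate 4 or 5 at 6 months, and was 0.00473 in DESeq2 and 0.0470 in edgeR with its filterByExpr filter on low counts. The other 5 inhibitors, Cdkn1b, Cdkn1c, Cdkn2b, Cdkn2c and Cdkn2d, had differences between -0.61 and 0.54 in these 4 comparisons, and none passed. Of the 37 genes, 6 share exon bases with a gene on the other strand that has 22.3% to 2372% of their own counts (Ccnd1, Ccne2, Mcm7, Ccna2, Kif20a and Cdc20), and since it is not stated whether counting used the strand, their counts may hold reads of that partner.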

How the data were processed

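RNA-seq of poly(A) RNA was measured in 20 mouse livers in 4 groups of 5, assigned from the sample titles. Nothing in the labels says more of the replicates than their number, so p-values measure the spread between these samples. The paper's text gives male mice and its legend female ones, as the labels do. The authors aligned reads with STAR to mm10. Their methods name HOMER for counting, the submitters' processing notes name HTSeq and Cufflinks without roles, and whether counting used strand is not stated. They deposited raw counts per gene, without normalization, and FPKM values, which were used here as an alternative only (21 of 740 cells of the 37 genes are blank).

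All 55421 genes were read, and the 22867 with 10 or more counts in total were tested with the quasi-likelihood test of edgeR 4.0.16 (R 4.3.3, TMM scaling, 1 mean per group over all 20 libraries, Benjamini-Hochberg adjustment over all genes tested). Of the others, 22854 had no count and 9700 had 1 to 9. A call needed an adjusted p under 0.05, and the study's rule also an absolute log2 fold change above 1. Intervals are 95% intervals of that fit and CPM uses TMM-scaled library sizes. Totals of 19916430 to 24079736 counts per library limit the precision of genes with few counts. Intervals and floors cover these fits and counting error only.

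Alternatives were DESeq2 1.42.0, limma 3.58.1 (voom, and log2(FPKM + 1)), DESeq2 size factors in edgeR, no filter, filterByExpr, a replicate block, the libraries of 1 comparison alone, no fold threshold and each library left out. Scripts were tested on simulated data. The members and gene lists were chosen with earlier results of these data known. All 37 members could be named, and full statistics were given for those past the threshold and for the largest absolute change of each role and guide comparison. Of the other lists, values were given for genes past the threshold and for all CDK inhibitors, while Nusap1, Prc1, Alb and Ttr were named as examples of their lists and Ly6g for its counts of 0. Members named for an unadjusted p, and Ccnb1, Ccnd1 and Ube2c, were picked after their values were seen. Exon lengths came from GENCODE M21 and promoters from RefSeq, both on GRCm38.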

Additional observations from a re-analysis of the deposited data

Results flagged for a closer look

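In 12 of 148 groups of 5 libraries (37 genes in 4 groups), a single library stood apart from the others by Dixon's test at its 95% critical value, and in 2 of 28 groups of summed levels per role. Chance alone gives about 1 in 20 such groups, and genes of the same libraries are not independent. Values are log2 CPM.

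Most of them belong to Rosa26 replicate 3 at 6 months. There Ccnd1 stood at 6.52 with 4.82 to 5.26 in the other 4 libraries, Mcm3 at 3.34 with 1.79 to 2.23, Mcm6 at 3.29 with 2.28 to 2.47 and Rrm2 at 3.16 with 1.68 to 1.94. Among the mitosis-phase genes, Cdk1 stood there at 1.96 with -0.03 to 0.51 in the others, Bub1b at 1.32 with -0.53 to -0.12 and Cenpe at -0.0068 with -1.93 to -1.64. The summed level of the G1/S cyclins and E2F factors was 6.92 in this library with 5.53 to 5.77 in the others, and that of the licensing factors 5.99 with 5.20 to 5.28.

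In Rosa26 replicate 3 at 3 weeks, Rrm1 stood at 3.32 with 3.05 to 3.12 in the others, Cenpe at -0.53 with -1.62 to -1.34 and Cdc20 at 1.83 with 0.34 to 0.70. Low values stood apart in 2 cases: Tyms, the thymidylate synthase, in Rosa26 replicate 5 at 6 months at 2.24 with 2.64 to 2.80 in the others, and Rrm1 in HIRA replicate 5 at 6 months, the library that departs from its label, at 2.74 with 3.14 to 3.21.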

How the results depend on the processing

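None of the 37 genes was called in any of the 5 comparisons under any of the settings run, by edgeR, DESeq2 or limma. The smallest adjusted p of any of them was 0.0527 (Ccne1 at 6 months without Rosa26 replicate 3), and the most with an unadjusted p under 0.05 in 1 setting were 12 (HIRA over time without replicate 3 at 6 months). Leaving out 1 library, the median log2 difference of the 37 ran from 0.18 to 0.56 at 3 weeks, from -0.17 to 0.47 at 6 months, from -0.41 to 0.13 over time in Rosa26, from -0.46 to -0.07 over time in HIRA and from -0.39 to 0.21 for the interaction. The other methods and filters gave 0.11 to 0.35, 0.06 to 0.22, -0.07 to 0.04, -0.44 to -0.09 and -0.18 to -0.04. The sign of the median turned at 6 months without HIRA replicate 3, over time in Rosa26 without replicate 3 at 6 months or replicates 1, 2 or 4 at 3 weeks (and to -0.07 in limma-voom, -0.02 on log2(FPKM + 1) and -0.05 with the replicate block), and for the interaction without Rosa26 replicate 3 or HIRA replicate 5 at 6 months. At 6 months Cdc20 ran from -0.40 to 1.06 and Plk1 from -0.22 to 0.88 with 1 library left out, and both changed sign without HIRA replicate 3. The cause was not tested.

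Over all genes, calls by the study's thresholds in edgeR's joint fit numbered 26, 76, 37, 13 and 0 in the 5 comparisons. They ran from 3 to 69, 0 to 127, 1 to 156, 2 to 74 and 0 to 0 under other methods and filters, and from 3 to 43, 18 to 109, 1 to 83, 5 to 25 and 0 to 1 with 1 library left out. Without the fold threshold they were 45, 299, 74, 15 and 0.

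Replicate numbers did not pair most of the libraries: deviations from the group means correlated between same-numbered libraries at 0.063, 0.121, 0.295, 0.034 and 0.004 at 3 weeks and at 0.150, 0.055, 0.296, -0.088 and -0.125 at 6 months. The best correlation with a library of another number was 0.229, 0.120, 0.049, 0.124 and 0.174 at 3 weeks. At 6 months it was 0.229, 0.251, 0.540, 0.316 and 0.342. The same number gave the higher value for replicates 2 and 3 at 3 weeks and the lower one in the other pairs. With the replicate number as a block, 0 of the 37 genes was called in any comparison (18.9%, 10.8%, 13.5%, 18.9% and 2.70% had an unadjusted p under 0.05, against 8.98%, 15.4%, 13.0%, 8.45% and 6.53% of all genes), Cdkn2a over time in Rosa26 had an adjusted p of 0.0407, and calls over all genes were 27, 72, 61, 26 and 0. The mitosis-phase genes have few counts (0 to 185 per library for those described), which with the spread between livers limits what 5 against 5 can resolve.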
